A study of Mus musculus with 16 samples.

Results

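The collagen genes on the array were examined in gastrocnemius, the large calf muscle, from mice heterozygous for loss of Eif6 (Het, Eif6+/-) and from their wild-type littermates (WT). Members were all non-control probes whose gene name was Col, a number, the letter a and a number, with the probe of highest mean signal standing for each gene. This gave 44 genes of the 34650 named genes on the array, represented by 69 probes. By the kind of assembly they form, 11 were fibrillar, 6 were basement membrane (type IV) and 27 were other collagens.

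Eif6 encodes a factor that binds the large ribosomal subunit and takes part in translation initiation. The mice were male C57BL6 animals of 8 to 16 weeks on standard chow, with 3 animals per genotype. Each muscle, trimmed of visible fat and connective tissue before freezing, gave total RNA (whole muscle), RNA from pooled sucrose gradient fractions with 2 or more ribosomes (polysomes) and RNA from the monosome fraction, hybridised in 1 colour to 60-base Agilent probes. There were 3 arrays in each whole-muscle and polysome group and 2 in each monosome group (WT mice 1 and 2, Het mice 1 and 3), 16 arrays in all. The paper describes an analysis of polysomal and total muscle RNA, and its main text does not mention monosome arrays.

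Collagens are extracellular proteins of 3 chains wound around each other into a helix, which requires glycine at regular intervals along each chain. In muscle, fibrillar types I and III, made mainly by fibroblasts, form the connective tissue sheaths around fibres and bundles, type V collagen sits within these fibrils, type IV forms the sheet-like network of the basement membrane around each fibre and capillary, and type VI filaments link the basement membrane to the fibrils. Chains are synthesised on membrane-bound ribosomes and are hydroxylated, folded, trimmed and cross-linked before a fibre is made. In bulk tissue, fewer cells of a type and less RNA per cell cannot be told apart.

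The glycine repeat is visible in the probe for Col15a1, a basement-membrane-associated collagen to which several results below refer. The probe lies on mouse build mm9 at chr4:47283786-47283845, plus strand, 2280 bases into its transcript. Capitals mark the 6 GGN glycine codons, which recur every 9 bases; 2 of the 69 collagen probes held the pattern over their whole length, those for Col15a1 and Col25a1.
Col15a1 probe: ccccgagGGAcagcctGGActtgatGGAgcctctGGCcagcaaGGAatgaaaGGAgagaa

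The 250 bases before the transcription start are shown next for 3 fibrillar members that were lower in Het polysomes without overlap between the genotypes (below), Col1a2, Col3a1 and Col5a3. They were chosen after their values were seen. RefSeq promoters of build GRCm38.p6 were held for 35 of the 44 genes, and not for Col1a1. Capitals mark the element CCAAT where the stretch holds it. In the Col3a1 stretch, which does not, they mark a TATA element with the letters TATAAA. Each was searched on both strands.
Col1a2 promoter, chr6:4505368-4505617, plus strand: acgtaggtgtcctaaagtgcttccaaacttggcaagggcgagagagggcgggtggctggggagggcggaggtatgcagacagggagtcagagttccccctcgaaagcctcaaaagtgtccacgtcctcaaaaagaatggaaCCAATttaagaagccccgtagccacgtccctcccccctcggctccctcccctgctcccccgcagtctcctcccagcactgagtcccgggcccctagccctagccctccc
Col3a1 promoter, chr1:45311288-45311537, plus strand: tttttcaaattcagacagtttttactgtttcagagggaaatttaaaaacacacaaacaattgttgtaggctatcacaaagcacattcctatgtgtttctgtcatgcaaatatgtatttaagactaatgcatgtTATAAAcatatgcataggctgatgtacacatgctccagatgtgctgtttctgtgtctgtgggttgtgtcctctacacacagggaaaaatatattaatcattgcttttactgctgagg
Col5a3 promoter, chr9:20815068-20815317, minus strand: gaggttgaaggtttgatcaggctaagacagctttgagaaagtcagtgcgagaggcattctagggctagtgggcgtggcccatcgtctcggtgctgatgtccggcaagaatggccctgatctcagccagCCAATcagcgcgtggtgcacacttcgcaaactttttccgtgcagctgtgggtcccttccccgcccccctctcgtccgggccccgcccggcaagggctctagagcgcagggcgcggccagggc

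CCAAT began 109 bases before the start of Col1a2 and 122 bases before that of Col5a3, and was not in the window of Col3a1. Over whole promoter entries, which run to 50 bases after the start, the first element was in 13 of the 35 collagen genes and in 33.8% of all 32851 promoters. The TATA element was in 5 of the 38 and in 12.4% of all. A match to these letters is a description of the sequence only. GC content was 62.0% for the Col1a2 stretch, 35.2% for Col3a1 and 62.8% for Col5a3.

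The genes for the main type IV chains, Col4a1 and Col4a2, are transcribed away from each other, and in the RefSeq annotation their starts overlap by 22 bases. The sequence is shown because these 2 genes kept close to each other on the arrays (below). Capitals mark the shared bases, read on the plus strand of GRCm38.p6 at chr8:11312801-11312830.
Col4a1 and Col4a2 starts: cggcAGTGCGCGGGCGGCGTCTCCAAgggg

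Several facts of the series bear on every result below. Eif6 itself was lower in Het without overlap in each kind of RNA, with log2 signals on the brighter of its tested probes of 8.97 to 9.66 in WT and 8.21 to 8.40 in Het whole muscle, 9.95 to 10.71 and 8.87 to 9.12 in polysomes, and 9.36 to 10.16 and 7.82 to 8.06 in monosomes. Array brightness, the 75th percentile of the processed signal, ran from 12.7 to 150.1, and the 3 WT whole-muscle arrays (42.3, 57.1 and 150.1) were brighter than the 3 Het ones (13.5, 19.1 and 33.0). On the WT polysome and monosome arrays of mouse 2, probes toward the 5' end of transcripts were brighter than those toward the 3' end (median log2 difference 0.58 and 0.80 over 1200 pairs), whereas on the other 14 arrays they were dimmer (-1.35 to -0.79). The arrays lay on 2 slides that both held each genotype and each kind of RNA. For whole muscle and polysomes a slide held 1 array of one genotype and 2 of the other, and for monosomes 1 of each, so that values within a slide had no replicate spread in 1 or both arms. No mouse had its whole-muscle and polysome arrays on the same slide. All 10 skeletal muscle fibre markers were well above background on all 16 arrays. Of 7 cartilage and bone markers, Matn1, Matn3, Hapln1 and Bglap were on none, whereas Acan, Sox9 and Ibsp were on some. Acan was on 2 of 3 arrays in WT whole muscle and in each polysome group, and on no Het whole-muscle array.

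Part of the collagen family was detected in gastrocnemius. The scanner software's call of well above background was made on all 16 arrays for 16 of the 44 genes, on some arrays for 20 and on none for 8. The 16 were Col1a1, Col1a2, Col3a1, Col5a1 and Col5a3 among the fibrillar collagens, Col4a1, Col4a2, Col4a3 and Col4a6 of the basement membrane, the type VI chains Col6a1, Col6a2 and Col6a3, and Col16a1, Col18a1, Col22a1 and Col26a1. The 8 genes never well above background were Col6a4, Col6a6, Col9a3, Col10a1, Col13a1, Col17a1, Col19a1 and Col24a1. Among them are Col10a1 of growth-plate cartilage, Col9a3 of cartilage fibrils and Col17a1 of epithelial hemidesmosomes. Col2a1, the main fibrillar chain of cartilage, was well above background on 1 of 3 arrays in each whole-muscle group, on 2 of 3 in each polysome group and on no monosome array. Between 19 and 33 collagen genes were well above background on 1 array, and the lowest counts were on the dimmest arrays, WT monosome 2 and Het whole muscle 2 (19 each).

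**Figure D1:**
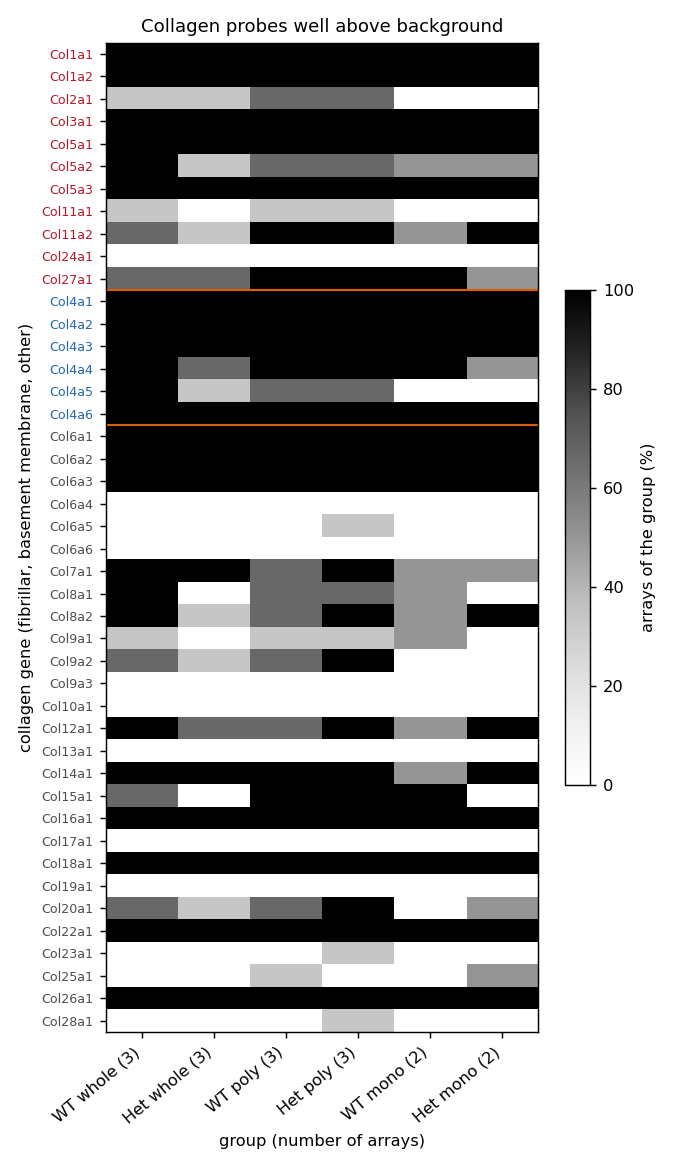
Share of arrays (grey scale, percent) in each of the 6 groups (columns, number of arrays in brackets) on which the probe of each of the 44 collagen genes (rows, separated by class) was well above background. Genes in black across all columns are the 16 detected on every array, and 8 rows are white throughout.

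A gene was tested between genotypes if, in 1 or more of the whole-muscle and polysome groups, all arrays showed its probe well above background. This held for 29 of the 44 genes (8 fibrillar, 6 basement membrane, 15 other). Of the 15 left out, 7 were well above background on some arrays.

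Whole muscle addressed whether Het mice held different amounts of collagen RNA. Of the 29 genes, 19 were lower and 10 higher in Het, with a median log2 difference of -0.47 against -0.03 over all 19812 tested probes, of which 53.8% were below 0. The tested genes of types I, III, V and VI were below 0, with 6 of 8 fibrillar genes lower (median -0.44) and 3 of 3 type VI genes (median -0.60). Col4a5, Col5a2 and Col8a1 passed the filter through WT whole muscle alone, which in part fixed their side, and Col5a2 and Col8a1 are among the lower genes. Of the 17 genes well above background on all 12 whole-muscle and polysome arrays 13 were lower, 5 of 5 fibrillar genes among them (median -0.49). Type IV was split, with Col4a1 and Col4a2 at -0.56 (SE 0.32) and -0.69 (SE 0.31) and Col4a3, Col4a5 and Col4a6 at 0.87, 0.51 and 0.99. By the study threshold (a log2 difference beyond 1 with an unadjusted limma p under 0.05), 1 member was called lower, against 3.59% of all probes, and none higher, against 1.87%. No member passed an adjusted p of 0.05 in limma, against 0.0101% of all probes, whereas Col6a2 and Col15a1 (lower, against 5.31% of all probes) and Col27a1 (higher, against 3.19%) were under 0.05 before adjustment.

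The member called was Col15a1, with log2 signals of 3.76, 3.69 and 2.28 in WT and 1.98, 1.70 and 1.66 in Het. The genotypes did not overlap, but no Het array and only 2 of 3 WT arrays showed the probe well above background, so no fold is given. The call was lost in 11 of 18 other settings, with differences of -0.66 under 75th percentile scaling and -0.12 under normexp against -1.46 here. Col6a2, a type VI chain, was the other member lower without overlap, at 8.89, 7.74 and 8.02 in WT and 7.40, 7.55 and 7.46 in Het (difference -0.74, SE 0.33, adjusted p = 0.581 in limma). Over all probes 8.46% were lower without overlap, and 2 of 29 members is close to that share. Col4a3, a chain of the restricted type IV network, was higher without overlap (4.66, 5.47 and 5.29 in WT, 5.49, 5.64 and 6.90 in Het), as were 5.09% of all probes.

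The type I genes showed how a single mouse carried these values. Col1a1 was at 12.36, 12.26 and 12.58 in WT and at 12.42, 12.74 and 10.90 in Het, and Col1a2, the partner chain in type I collagen, at 13.44, 13.47 and 13.50 in WT and at 13.02, 13.68 and 12.61 in Het. Het mouse 3 was lowest of the 6 for both, and Het mouse 2 highest for both. Col3a1, the chain of type III collagen, was at 12.52, 11.15 and 12.39 in WT and 11.72, 11.71 and 10.80 in Het, with WT mouse 2 below 2 of the Het mice. Without Het mouse 3 the median of the members moved from -0.47 to -0.18, and without WT mouse 2, 5 members passed the study threshold (Col3a1, Col5a1, Col14a1 and Col15a1 lower, Col27a1 higher), against 6.26% of all probes lower and 4.42% higher in that fit. The median was -0.44 on slide 1 and 0.01 on slide 2, with 1 array in an arm of each, and 0.03 with array brightness as a term in the fit, so the lower side was not kept across these fits.

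Polysomes addressed whether collagen transcripts carrying several ribosomes differed in amount. Of the 8 fibrillar genes 7 were below 0 in Het against WT polysomes, Col5a2 being the exception, with a median of -0.79 against 0.05 over all probes, of which 47% were below 0. None of the 8 passed the study threshold. Their mean log2 signal was 9.60, 8.49 and 8.98 in WT and 8.44, 8.53 and 8.06 in Het, so that WT mouse 2 lay below Het mouse 2 and the genotypes overlapped. Of the fibrillar genes well above background on all 12 arrays 5 of 5 were lower (median -0.81). Col1a2, Col3a1, Col5a3 and Col27a1 were lower without overlap between the genotypes, and Col5a1 was at -0.93 (SE 0.50) with overlap. Among basement membrane collagens 4 of 6 were higher, with a median of 0.16 that was -0.16 over the 4 well above background on all 12 arrays (2 of them higher). Over all 29 genes, 17 were lower and 12 higher (median -0.30). Col9a2 and Col20a1, both higher, passed the filter through Het polysomes alone, which in part fixed their side. Of the 17 genes well above background on all 12 arrays 13 were lower (median -0.47). Col15a1 alone passed the study threshold, in the lower direction, against 1.48% of all probes, and no member passed it in the higher direction, against 4.02%. No member and no other probe (0%) passed an adjusted p of 0.05 in limma, while 6 members were lower at an unadjusted p under 0.05, against 4.87% of all probes, and none higher, against 10.4%.

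Col1a2 was at 14.56, 14.50 and 14.51 in WT polysomes and at 13.92, 14.15 and 13.60 in Het polysomes. The 3 WT values were nearly the same, and all 3 Het values lay below them. The difference was -0.63 (SE 0.27, adjusted p = 0.304 in limma). Col3a1 was at 13.29, 12.50 and 13.20 in WT and at 12.30, 12.04 and 11.70 in Het (difference -0.98, SE 0.40, adjusted p = 0.30 in limma). Col5a3, a minor chain of type V collagen, was at 9.77, 9.02 and 9.15 in WT and at 8.54, 8.59 and 8.36 in Het (difference -0.81, SE 0.36, adjusted p = 0.316 in limma). In each of these the highest Het mouse stayed below the lowest WT mouse. Col1a1 did not separate, with 12.87, 12.73 and 12.996 in WT and 12.69, 12.97 and 12.04 in Het (difference -0.30, SE 0.42).

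Type VI collagen is built of 3 chains, and all 3 of its tested genes were lower in Het polysomes. Col6a2 was at 8.76, 9.79 and 9.45 in WT and 8.57, 8.20 and 8.43 in Het (difference -0.93, SE 0.33, adjusted p = 0.268 in limma), without overlap. Col6a1 and Col6a3 overlapped between the genotypes, with differences of -0.28 (SE 0.30) and -0.21 (SE 0.41). Without WT mouse 2 the differences were -0.48 for Col6a1, -0.70 for Col6a2 and -0.70 for Col6a3. A dimmer probe for Col6a2, 4893 bases into its transcript against 3239 for the probe used, gave 0.82 in polysomes, so the 2 probes of this gene did not share a sign there. Of 7 members with several tested probes, 4 had the same sign on all of them in polysomes (not Col6a2, Col16a1 and Col26a1) and 4 in whole muscle (not Col4a6, Col20a1 and Col26a1).

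**Figure D2:**
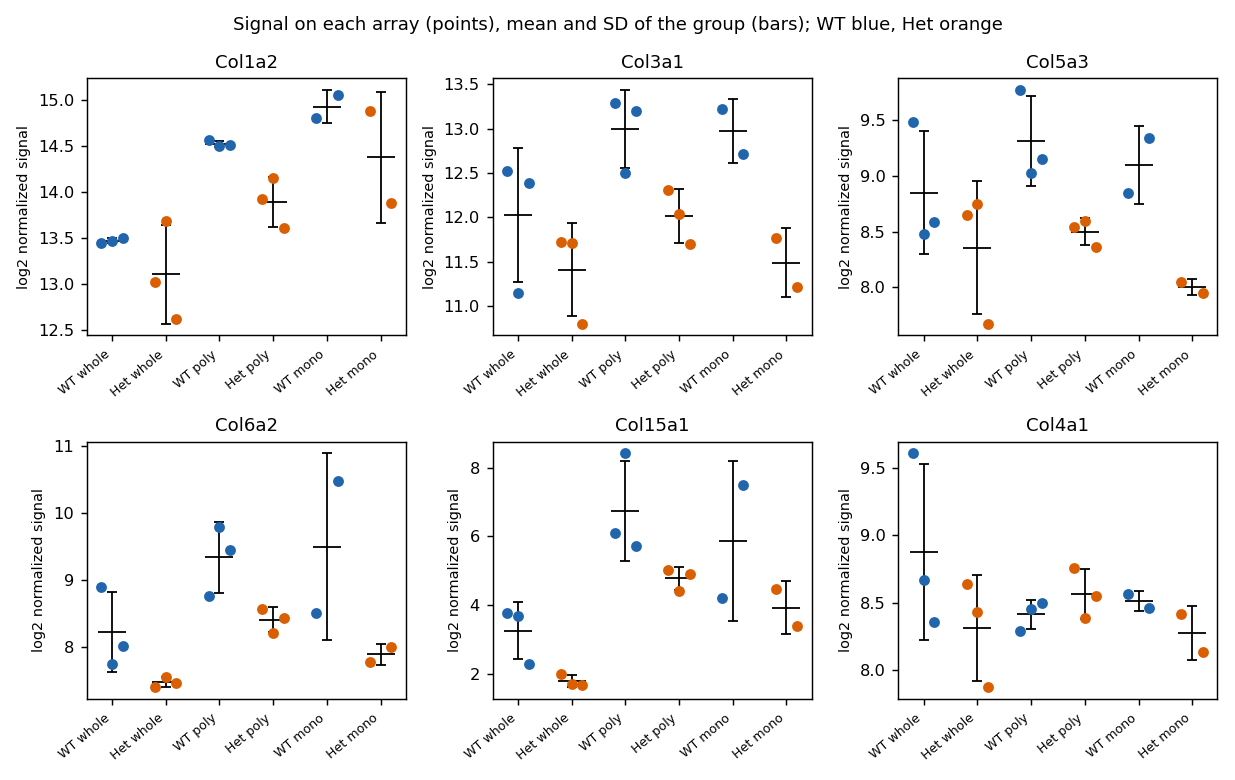
Log2 normalized signal on each array (points, WT blue and Het orange) for 6 collagen genes in the 6 groups, with the mean and SD of each group as bars, on axes that do not start at 0. In polysomes every Het point of Col1a2, Col3a1, Col5a3, Col6a2 and Col15a1 lies below every WT point, whereas the points of Col4a1 overlap.

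Col15a1 had the widest genotype difference in polysomes, at 6.09, 8.42 and 5.72 in WT and 5.03, 4.40 and 4.91 in Het (difference -1.96, SE 0.62, adjusted p = 0.248 in limma). The highest value was on the WT polysome array of mouse 2, where 5' probes were bright, and the part of this in the result was not tested beyond leaving the mouse out. Without WT mouse 2 the difference was -1.12. Its related multiplexin Col18a1, the source of endostatin, was at 7.52, 6.85 and 7.18 in WT and 7.12, 6.73 and 6.55 in Het (difference -0.38, SE 0.37). Both other Col15a1 probes, near the 3' end of its transcript, were not bright enough to be tested.

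In the other direction, Col4a1 was at 8.29, 8.45 and 8.50 in WT polysomes and 8.75, 8.39 and 8.55 in Het (difference 0.15, SE 0.32), and Col4a2 at 8.39, 8.22 and 8.82 in WT and 8.70, 8.46 and 8.79 in Het (difference 0.18, SE 0.31). The 2 genes with facing starts thus moved by similar amounts in the main fit, both here and in whole muscle. In polysomes the differences were -0.11 for Col4a1 and -0.15 for Col4a2 with array brightness as a term. Without WT mouse 2 they were 0.17 and 0.05, so the higher side was not kept in every fit. Col4a4 was the 1 member higher without overlap (5.18, 5.36 and 5.55 in WT, 5.83, 5.67 and 5.64 in Het, difference 0.35, SE 0.22), as were 13.2% of all probes. Members lower without overlap numbered 6 of 29, against 8.60% of all probes, namely Col1a2, Col3a1, Col5a3, Col27a1, Col6a2 and Col15a1. For each of the 6 an exact two-sided permutation test gave p = 0.1, the smallest that 3 mice against 3 allow. Any 3 against 3 without overlap give this value, so it adds nothing to the lack of overlap.

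The median fibrillar difference in polysomes was -0.83 with array brightness as a term (8 of 8 genes lower), -0.96 without WT mouse 2 (8 of 9) and -0.76 under scaling to the 75th percentile (8 of 8). Within slides, where 1 genotype was a single array (Het on slide 1, WT on slide 2), it was -0.59 on slide 1 (7 of 9) and -0.65 on slide 2 (8 of 10). These are the same arrays split, and the filter passed more genes there. The median over all members was less steady, at 0.03 on slide 1, -0.54 on slide 2 and -0.072 without Het mouse 3. Without WT mouse 2, 6 members passed the study threshold (Col3a1, Col5a1, Col5a2, Col12a1, Col14a1 and Col15a1, all lower), against 2.73% of all probes lower in that fit.

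**Figure D3:**
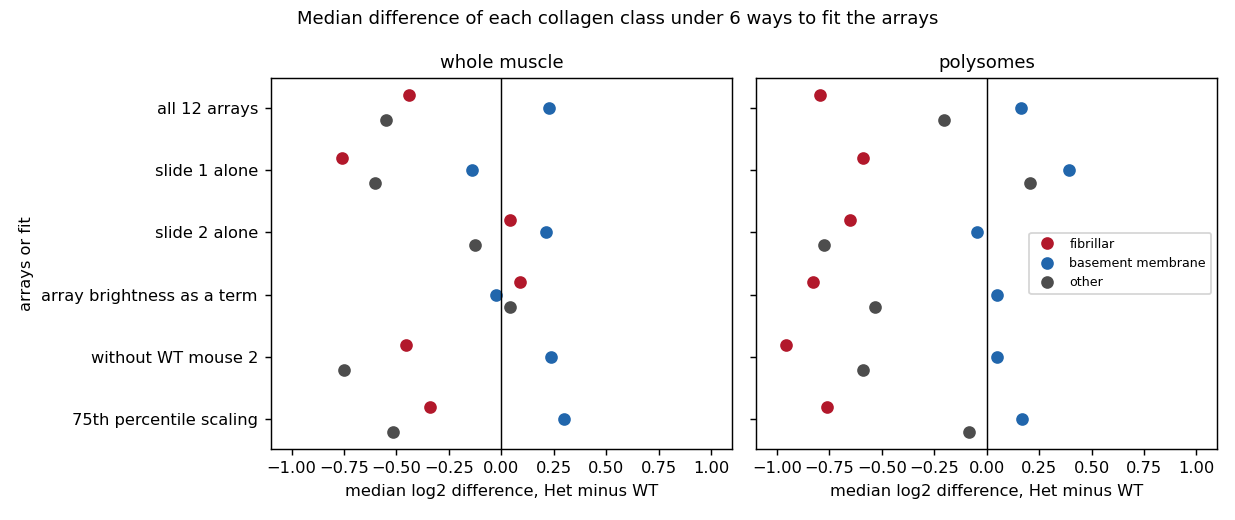
Median log2 difference, Het minus WT (horizontal axis), of the fibrillar (red), basement membrane (blue) and other (grey) collagens under 6 ways of fitting the arrays (vertical axis), for whole muscle and polysomes. In polysomes the fibrillar median stays between -0.96 and -0.59, whereas in whole muscle it runs from -0.76 to 0.09.

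**Figure D4:**
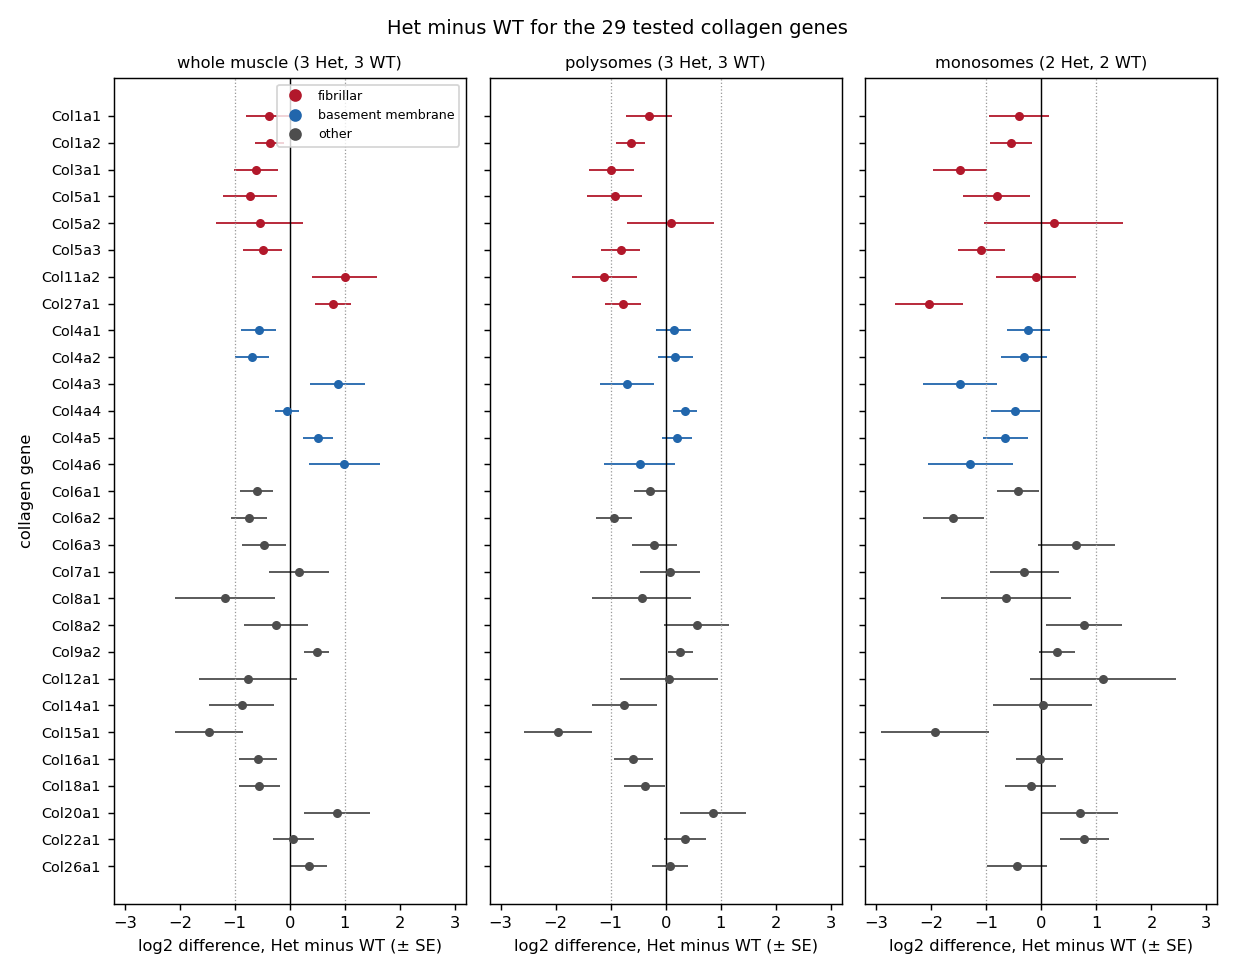
Log2 difference, Het minus WT, with its standard error from limma, for the 29 tested collagen genes (rows, coloured by class) in whole muscle, polysomes and monosomes, with dotted lines at 1 and -1. Fibrillar genes lie mostly left of 0 in polysomes and monosomes, and the whole-muscle points of Col8a1 and Col15a1 rest on Het arrays that were not well above background.

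The monosome groups held 2 mice each, so that an exact permutation test cannot go below p = 0.333, and the p-values of limma assumed that these groups vary like the others. Of the 29 genes, 21 were lower and 8 higher in Het, with a median of -0.40 against 0.10 over all 20250 tested probes, of which 46.9% were below 0. All 6 basement membrane genes were lower (median -0.57), Col4a5 among them although no monosome array showed it well above background, as were 7 of 8 fibrillar genes (median -0.68). Without WT mouse 2, which leaves 1 WT array, 4 of 6 basement membrane genes were lower (median -0.18). For fibrillar genes it was 6 of 9 (median -0.85). With all mice, the study threshold was passed by 5 members, all lower, against 11.5% of all probes lower and 17.2% higher. They were Col27a1 (-2.04), Col6a2 (-1.60), Col3a1 (-1.48), Col4a3 (-1.48) and Col5a3 (-1.09), with adjusted p-values of 0.0906 to 0.145 in limma. No member passed an adjusted p of 0.05 in limma, against 0.499% of all probes.

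Col3a1 was at 13.23 and 12.72 in WT monosomes and 11.76 and 11.22 in Het. It left the threshold without WT mouse 1 (-1.23) or Het mouse 3 (-1.21), with 1 array in an arm, under 75th percentile scaling and in the methods' t-test. Col6a2 was at 8.50 and 10.47 in WT and 7.78 and 8.00 in Het, and Col4a3 at 7.22 and 8.80 in WT and 6.86 and 6.20 in Het. For both genes the higher WT value was on the array of mouse 2, and without that mouse the differences were -0.62 and -0.69. Col27a1, Col4a3, Col5a3 and Col6a2 all left the threshold without WT mouse 2. Col15a1 was at 4.21 and 7.52 in WT and at 4.47 and 3.38 in Het, where it was not well above background. The mean of WT was at least 3.62-fold higher (adjusted p = 0.18 in limma), but the groups overlapped and the difference without WT mouse 2 was -0.28. Without Het mouse 3 the median over the members was -0.073.

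Loading, a log2 difference, was taken within a mouse by subtracting its whole-muscle value from its polysome value. It describes how much of a transcript was in polysomes relative to the tissue total, on arrays normalized to each other, and every such difference crossed the 2 slides. In WT, 20 of 29 collagen genes were above 0 and 9 below, with a median of 0.34 against 0.04 over all probes, of which 51.9% were above 0. The study threshold was passed by 5 members, all higher in polysomes, against 8.37% of all probes higher and 12% lower. These were Col15a1 (3.50), Col11a2 (1.58), Col6a2 (1.12), Col4a3 (1.08) and Col1a2 (1.06). Col15a1, Col11a2 and Col27a1 were each well above background on 2 of 3 WT whole-muscle arrays and passed the filter through polysomes, so the filter in part fixed their direction, and their loading is given as a description only. At an adjusted p under 0.05 in limma 5 members were higher and none lower, against 10.7% and 10.9% of all probes, namely Col15a1 (adjusted p = 0.00461), Col4a3 (0.0164), Col1a2 (0.017), Col3a1 (0.026) and Col27a1 (0.0305). Without Col15a1 and Col27a1 3 remain, of which Col3a1 was not under 0.05 without WT mouse 2. Loading was above 0 in every WT mouse for 10 members, these 5 included, and for 30% of all probes.

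The fibrillar genes Col1a2 and Col3a1 were well above background on every array. Loading of Col1a2 was 1.12, 1.03 and 1.02 in the 3 WT mice, and that of Col1a1 was 0.50, 0.47 and 0.42. Both type I chains thus varied little between mice, and loading of the Col1a2 probe was higher than that of the Col1a1 probe in each. Under 75th percentile scaling the mean for Col1a1 fell to 0.098, against 0.94 for Col1a2. Loading of Col3a1 was 0.77, 1.34 and 0.81. Among the 8 fibrillar genes 7 were above 0, with a median of 0.71. Col4a1 and Col4a2 were on the other side, at -1.31, -0.22 and 0.14 and at -1.35, -0.66 and 0.21, where the lowest value came from WT mouse 1, whose whole-muscle array was the brightest of all 16. Without WT mouse 2, Col4a3 and Col6a2 were no longer past the study threshold in WT whereas Col20a1 and Col27a1 were (5 members in all, against 8.66% of all probes higher in that fit), and with array brightness as a term the calls were Col4a3, Col15a1 and Col27a1.

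In Het, 20 of 29 genes were again above 0 and 9 below (median 0.25 against 0.13 over all probes, of which 58.2% were above 0). Col9a2 and Col20a1, both above 0, passed the filter through Het polysomes alone, which in part fixed their side. Of the 17 genes well above background on all 12 whole-muscle and polysome arrays 13 were above 0 (median 0.26). The type VI chains were above 0 for 3 of 3 (median 0.67) and the fibrillar genes for 4 of 8 (median 0.01). The study threshold was passed by 1 member in the higher direction, against 7.58% of all probes, and by none in the lower, against 5.81%. It was Col15a1, at least 1.52-fold higher in polysomes than in whole muscle, where it was not well above background. Its adjusted p was 0.015 in limma, the 1 member under 0.05, against 3.72% of all probes in that direction, but it entered through polysomes, so that the filter in part fixed its direction and it is given as a description only. Loading of Col1a2 was 0.91, 0.47 and 0.99 (mean 0.79, SE 0.21, adjusted p = 0.059 in limma), and that of Col3a1 was 0.58, 0.33 and 0.89 (mean 0.60, SE 0.23, adjusted p = 0.133 in limma). Every Het mouse was above 0 for both, but under 75th percentile scaling the means fell to 0.43 for Col1a2 and 0.17 for Col3a1.

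**Figure D5:**
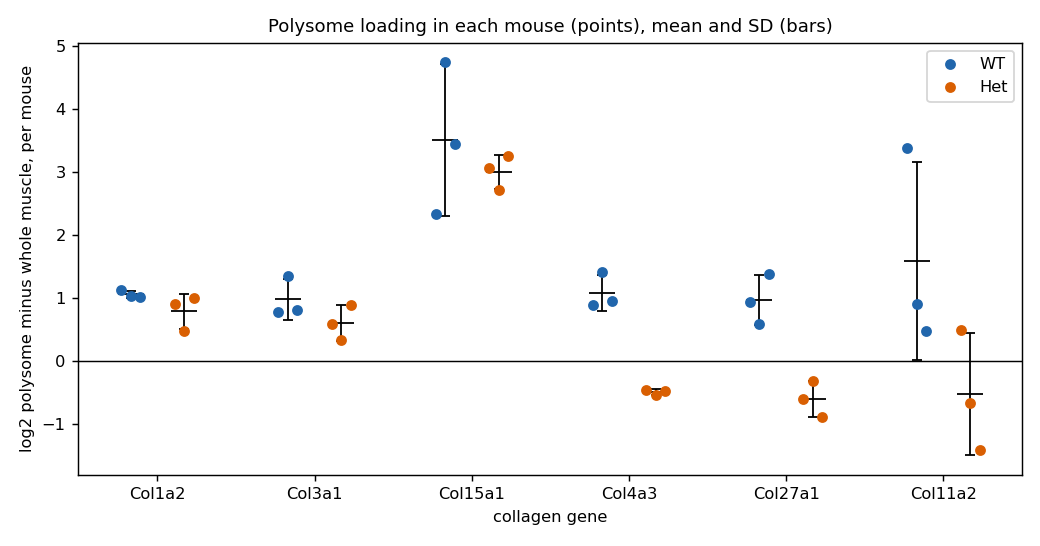
Log2 polysome minus whole-muscle signal in each mouse (points, WT blue and Het orange) for 6 collagen genes, with the mean and SD of each genotype as bars. Col1a2, Col3a1 and Col15a1 are above 0 in all 6 mice, whereas Col4a3 and Col27a1 are above 0 in every WT mouse and below 0 in every Het mouse. Col15a1 was well above background on no Het whole-muscle array.

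Comparing loading between the genotypes asks whether a transcript moved into or out of polysomes beyond its change in the tissue. Across the collagen genes it did not shift in 1 direction, with 15 lower and 14 higher in Het and a median of -0.0023 against 0.17 over all probes, of which 40% were below 0. The study threshold was passed by 3 members, all lower, against 7.08% of all probes lower and 6.76% higher. No member passed an adjusted p of 0.05 in limma, nor did any other probe (0%). At an unadjusted p under 0.05 the members were the same 3, against 17% of all probes.

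Col4a3 was the steadiest of the 3. Its loading was 0.88, 1.41 and 0.95 in WT and -0.46, -0.54 and -0.48 in Het (difference -1.57, SE 0.29, adjusted p = 0.105 in limma). Col27a1, a fibrillar chain of cartilage and developing tissue, had loading of 0.93, 0.59 and 1.38 in WT and -0.60, -0.31 and -0.88 in Het (difference -1.57, SE 0.34, adjusted p = 0.105 in limma). For both, all WT mice were above 0 and all Het mice below it. The exact two-sided permutation test gave p = 0.1, which any 3 against 3 without overlap give. Over all probes 11.8% were lower without overlap, against 3 of 29 members, the third being Col1a2 with -0.27 (SE 0.29). Both also passed the study threshold without WT mouse 2 and with array brightness as a term. Neither passed it under normexp background correction, where the differences were -0.77 for Col4a3 and -0.38 for Col27a1, or with the authors' values (-0.84 and -0.56). They were higher in Het whole muscle and lower in Het polysomes, and both came from probes with low signal, that of Col27a1 being well above background on 2 of 3 whole-muscle arrays in each genotype.

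Col11a2, a minor chain of cartilage fibrils, was the third past the threshold, with loading of 3.38, 0.90 and 0.47 in WT and 0.50, -0.66 and -1.42 in Het (difference -2.11, SE 0.83, adjusted p = 0.264 in limma). The genotypes overlapped, and WT mouse 1 stood well above the others. Its probe was well above background on 2 of 3 WT and 1 of 3 Het whole-muscle arrays, and with array brightness as a term the difference was -0.17. The type IV genes Col4a1 and Col4a2 were at 0.71 (SE 0.45) and 0.86 (SE 0.47).

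Polysomes were also compared with monosomes in the 4 mice that had both. Of 26 genes tested, 19 were higher in polysomes and 7 lower, with a median of 0.29 against 0.17 over all 19747 tested probes, of which 56.6% were above 0. Collagens outside the fibrillar and type IV classes carried this, with 13 of 14 higher (median 0.42), whereas 4 of 7 fibrillar genes were lower (median -0.30). Col9a2 and Col20a1 among the 13 passed the filter through Het polysomes alone, which in part fixed their side. Of the 8 well above background on all 12 whole-muscle and polysome arrays 8 were higher (median 0.48). Without WT mouse 2, 15 of 16 of these other collagens were higher (median 0.53), and 5 of 9 fibrillar genes (median 0.04). With all 4 mice, past the study threshold were Col15a1 in the higher direction, against 13.9% of all probes, and Col4a3 in the lower (-1.31, SE 0.42), against 7.54%. No member passed an adjusted p of 0.05 in limma, against 5.87% of all probes, and 4 were higher at an unadjusted p under 0.05, Col9a2 among them, against 23.9%.

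Col18a1 was 1.07, 0.84, 0.75 and 0.87 higher in polysomes than in monosomes in WT mice 1 and 2 and Het mice 1 and 3. It was the most even of the 4 genes higher at an unadjusted p under 0.05 (mean 0.89, SE 0.22, adjusted p = 0.0615 in limma). Col14a1, a fibril-associated collagen, was 1.07, 1.27, 0.13 and 1.05 higher in the same mice (adjusted p = 0.0885 in limma). Every mouse was above 0 for 7 members, as for 31.5% of all probes. Col1a2 was below 0 in every mouse, at -0.24, -0.55, -0.96 and -0.27, as were 15.8% of all probes, and an exact test over signs cannot go below p = 0.125 with 4 mice. Col15a1 was 1.89 and 0.91 higher in WT mice 1 and 2, and no value is given for Het, where neither monosome array was well above background.

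Genes that act on collagen chains were counted from lists of known function. In whole muscle, enzymes and chaperones of collagen folding were lower for 15 of 17 tested genes (median -0.44), and Plod1, a lysyl hydroxylase well above background on 1 of 3 Het arrays, passed the study threshold (-2.25, SE 0.61, adjusted p = 0.349 in limma). Procollagen processing and cross-linking genes were lower for 7 of 10 (median -0.45), with Lox, lysyl oxidase, past the threshold. Lox passed the filter through WT whole muscle alone, which in part fixed its side. It was well above background on no Het whole-muscle array, and WT was at least 1.61-fold higher (adjusted p = 0.487 in limma). Fibril-bound matrix proteins were lower for 14 of 16 (median -0.47), with Thbs2 (-1.02) and elastin, Eln (-1.75), past it, each well above background on 1 of 3 Het arrays. Basement membrane partners such as laminins and nidogens were lower for 9 of 10 (median -0.19), breakdown enzymes and inhibitors for 7 of 9 (median -0.32), receptors for 3 of 6 (median -0.05) with Itgb1 past the threshold (-1.06), and regulators of collagen transcription for 7 of 12 (median -0.09) with Smad7 past it (-1.43), well above background on 1 of 3 Het arrays. Of the 80 genes tested over the lists 6 passed the study threshold, all lower, against the 3.59% of all probes given above. No gene of the 7 lists passed an adjusted p of 0.05 in limma in whole muscle, polysomes or monosomes, or in loading between genotypes.

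In polysomes the processing and cross-linking genes were the list most often lower, at 9 of 10 (median -0.52), and folding genes were lower for 11 of 17 (median -0.21) with Fkbp10, a collagen chaperone, past the threshold (-1.09, SE 0.44, adjusted p = 0.294 in limma). It was the 1 call of 80 list genes, against 1.48% of all probes lower, about the same share. Fibril-bound proteins were lower for 9 of 16 (median -0.44), breakdown genes for 5 of 9 (median -0.07) and receptors for 4 of 6 (median -0.04). Basement membrane partners were higher for 7 of 10 (median 0.12) and transcriptional regulators for 9 of 12 (median 0.24). Without WT mouse 2, a fit chosen after the data were seen, basement membrane partners were higher for 4 of 10 (median -0.19) and regulators for 6 of 12 (median 0.01), and processing genes were lower for 10 of 11 (median -0.63), folding genes for 12 of 18 (median -0.41), breakdown genes for 7 of 10 (median -0.55), fibril-bound proteins for 13 of 16 (median -0.46) and receptors for 4 of 6 (median -0.16). Mmp3, tested only in that fit, entered through WT polysomes alone, which favours the lower side. In that fit 13 of 83 list genes were past the threshold in the lower direction and 1 in the higher, against 2.73% and 2% of all probes. In whole muscle it gave 17 of 83, all lower, against 6.26%, and Lox passed an adjusted p of 0.05 in limma. The receptor median there was 0.04 in place of -0.05.

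In WT loading, 18 of the 80 list genes passed an adjusted p of 0.05 in limma, 13 higher and 5 lower, against 10.7% and 10.9% of all probes. By list these were 4 of 17 folding, 3 of 10 processing, 2 of 9 breakdown, 5 of 16 fibril-bound, 3 of 10 basement membrane and 1 of 12 regulator genes, and 0 of 6 receptors. Serpinh1, the collagen chaperone HSP47, was higher in polysomes (1.39, SE 0.24, adjusted p = 0.013 in limma), as were Fkbp10 (1.03), Pcolce, which enhances removal of the procollagen C-propeptide (1.17), and the propeptide-cleaving protease Bmp1 (1.02). Decorin, Dcn, was higher (1.46), and fibromodulin, Fmod (-1.42), Fbn1 (-1.12) and Ogn (-1.90) were lower. The inhibitors Timp2 (1.86) and Timp4 (1.31) were higher. Each of these passed an adjusted p of 0.05 in limma. Without WT mouse 2 the lists gave 12 higher and 1 lower of 83, against 6.88% and 8.39% of all probes, and Fkbp10, Fbn1 and Ogn were not among them. Ogn was then at -1.04. Between genotypes, loading of Bmp1 was lower in Het (-1.47, SE 0.30, adjusted p = 0.105 in limma), whereas that of Sec24d, a coat protein of procollagen export (1.55), Plod1 (2.05), Mmp2 (1.81), Fmod (1.51), Ogn (1.78), Nid2 (1.21) and Smad7 (1.89) was higher, each past the study threshold. Lox passed it too, but no value is given because its Het whole-muscle arrays were not well above background. Sec24d, Plod1, Nid2 and Smad7 were well above background on 1 of 3 Het whole-muscle arrays each, and Sec24d and Lox entered through WT whole muscle alone, a filter that favours this direction. In all, 8 of the 80 genes were called higher and 1 lower, against 6.76% and 7.08% of all probes. Without WT mouse 2, Ogn (0.91), Smad7 and Lox were no longer past the threshold whereas Itgb1 (1.15) and Mmp3 (lower, tested only in that fit) were. Mmp3 entered through WT polysomes alone, which favours the lower direction, and no Het whole-muscle or polysome array showed it well above background. In all, 6 were higher and 2 lower of 83 in that fit, against 7.04% of all probes in each direction.

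Markers of the cells that make collagen were set beside these values. The mean log2 signal of the fibroblast markers bright enough to test was 8.52, 8.16 and 8.32 in WT and 8.19, 8.14 and 7.97 in Het whole muscle, and 9.44, 8.79 and 9.32 in WT and 9.19, 8.61 and 9.14 in Het polysomes. In polysomes 7 of 9 tested fibroblast markers were lower in Het (median -0.20), against 7 of 8 fibrillar collagens (median -0.79). Tendon markers were lower for 5 of 5 in whole muscle (median -0.18) and for 2 of 5 in polysomes (median 0.11). Pericyte and smooth muscle markers were lower for 8 of 8 in whole muscle (median -0.28) and 4 of 8 in polysomes, and endothelial markers for 7 of 10 in both (medians -0.31 and -0.19). Schwann cell markers were lower for 4 of 6 and 3 of 6, and adipocyte markers for 4 of 6 and 5 of 6. When WT mouse 2 was left out, tendon markers turned to 3 of 5 lower in polysomes (median -0.10), pericyte markers were lower for 6 of 8 there and at a median of -0.48 in whole muscle, and the polysome medians were -0.33 for fibroblast and -0.10 for endothelial markers. Cell numbers were not measured, and the part of these cells in the collagen values was not tested.

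Macrophage markers had the most negative median of the cell type lists in whole muscle. Their mean log2 signal was 8.62, 5.58 and 7.49 in WT and 5.88, 5.74 and 5.58 in Het whole muscle, with 9 of 9 tested genes lower (median -1.51), against 53.8% of all probes below 0. Past the study threshold were 4 of them, Lyz2, Mpeg1, C1qa and C1qb, against 3.59% of all probes, although Lyz2 was well above background on no Het array. In polysomes it was 8.18, 5.91 and 7.65 in WT and 6.39, 6.02 and 6.48 in Het, with 8 of 9 lower (median -0.94), and in both kinds of RNA WT mouse 2 lay with the Het mice. Among the 29 tested collagen genes, WT mouse 2 was the lowest of the WT mice in both kinds of RNA for 12, Col3a1, Col5a1 and Col14a1 among them. In polysomes it was lowest for 19 and highest for 6, including Col15a1 and Col6a2. Blood markers were higher for 3 of 5 in whole muscle and lower for 5 of 5 in Het polysomes (median -1.15), and muscle fibre markers were lower for 5 of 10 and 1 of 10. Leaving out WT mouse 2, the macrophage median was -2.48 in whole muscle and -1.42 in polysomes, with 8 of 9 genes past the threshold in each, and the blood median in polysomes was -0.60. The part of macrophage or blood RNA in the collagen differences was not tested.

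The same markers moved between polysomes and whole muscle. In WT, loading was above 0 for 8 of 9 fibroblast markers (median 0.92), 6 of 8 pericyte and smooth muscle markers (median 1.01), 6 of 6 adipocyte markers (median 0.78) and 8 of 10 endothelial markers (median 0.64), against 20 of 29 collagen genes (median 0.34). Thy1, Pi16 and Clec3b, surface and secreted markers of fibroblasts, were at 1.47, 1.48 and 1.44, each under an adjusted p of 0.05 in limma. Tendon markers were below 0 for 5 of 5 (median -0.59) and muscle fibre markers for 7 of 10 (median -0.34), with Atp2a1, the calcium pump of fast fibres, at -3.07. With WT mouse 2 left out, muscle fibre markers turned to 7 of 10 above 0 (median 0.065), and the tendon median was -0.38. In Het, fibroblast markers were above 0 for 8 of 9 (median 0.96) and muscle fibre markers for 6 of 10 (median 0.06). The part of these cells in the collagen loading was not tested.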

How the data were processed

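RNA of 3 kinds from gastrocnemius of 3 WT and 3 Het mice was measured on 16 single-colour Agilent arrays, with groups taken from the sample labels. Per the file headers, intensities came from Feature Extraction 11.0.1.1, and the values used were its processed signals, which are background-subtracted. The deposited table of log2 values made by the authors, quantile normalized by their methods, was used as an alternative only. By their methods, Cy3-labelled cRNA was hybridised to SurePrint G3 arrays and scanned on a SureScan scanner. The paper names SAM for its arrays of 3 muscles, and the study threshold for its polysomal arrays. SAM was not used here. Probe positions are those of mm9 in the scanner files.

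Log2 processed signals were quantile normalized over the 16 arrays with limma 3.58.1 in R 4.3.3 after control spots (leaving 59305 of 62976 spots) and outlier-flagged spots were left out, and spots of 1 probe were averaged. A probe was tested if well above background on all arrays of 1 or more groups in a comparison. limma was fitted across all tested probes (19812 in the whole-muscle, polysome and loading comparisons, 20250 with monosomes), on group means or on ratios within a mouse, with Benjamini-Hochberg adjustment over all of them. The study threshold was a log2 difference beyond 1 and an unadjusted p under 0.05. The p-values measure the spread within groups, pooled over the groups of a fit, and the number of arrays limits the precision. Fits on group means took the arrays of 1 mouse as independent. Single values had an exact permutation test. The script was tested on simulated data.

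The members and lists were chosen with earlier results of these data known. Named genes were the chains of types I, III, IV, V and VI, Col12a1, Col14a1, Col15a1, Col18a1 and every other member called or without overlap. Other members were named after their values were seen. Lists held genes of collagen folding, processing, breakdown, receptors, fibril-bound and basement membrane partners, regulators, and markers of 10 cell types.

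By the series design the kinds of RNA came from the same mice, with monosome arrays here for 2 per genotype, and the number in the sample title was taken as the mouse across kinds. Deviations of whole-muscle and polysome arrays with the same number correlated at r 0.17 to 0.48 in 5 mice and 0.05 in WT mouse 3. Same-numbered WT and Het mice gave r of -0.33 to 0.45. Number 1 was at 0.22 in whole muscle and 0.45 in polysomes, and numbers 2 and 3 were below 0 in both. Numbers were not paired between genotypes. Alternatives were scaling to the 75th percentile, normexp, the authors' values, other filters and probe rules, slide and brightness terms, single slides, the methods' t-test, replicate blocks and leaving out each mouse. Promoters came from RefSeq tables.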

Additional observations from a re-analysis of the deposited data

Results flagged for a closer look

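Loading differed between genotypes past the study threshold for 3 genes: Col11a2 (-2.11), Col27a1 (-1.57) and Col4a3 (-1.57), in each case lower in Het. None passed an adjusted p of 0.05 in limma. Whole-muscle signal was near background for Col11a2 (well above it on 2 of 3 WT and 1 of 3 Het arrays) and Col27a1 (2 of 3 in each genotype), and both passed the filter through polysomes. In the difference between polysomes and monosomes over 4 mice, 1 mouse stood apart from the others for 3 of the 26 genes tested, where chance flags about 1 in 20 groups. Col11a2 was 2.84 higher in polysomes in WT mouse 1, whereas the other 3 mice were between -0.41 and -0.07. Col6a3 was 1.22 higher in WT mouse 2, the mouse whose polysome and monosome arrays had bright 5' probes, with the others between 0.03 and 0.10. Col4a3 was at 0.22 in Het mouse 3, with the others between -1.93 and -1.68.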

How the results depend on the processing

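Values on single slides come from arms of 1 or 2 arrays, and for polysome against whole muscle they compare different mice. A median was counted as moved if it shifted by more than the spread of the member mean between mice. The loading median, -0.0023 in the main fit, also changed sign within that spread, as without Het mouse 2 (0.15). Medians that moved and changed sign were those of whole muscle on slide 2 (0.015) and with brightness (0.030), of polysomes on slide 1 (0.029), of loading on slide 1 (0.59) and of polysome against whole muscle in Het on slide 2 (-0.12). Among single genes, Col4a3 in that Het comparison reversed on slide 2 (0.27), as did Col15a1 between polysomes and monosomes (-0.26). Medians that moved without a change of sign were those of whole muscle under normexp (-0.21) and no filter (-0.11), of monosomes under the authors' values (-0.18) and on slides 1 (-0.11) and 2 (-0.63), of loading on slide 2 (-0.48) and of polysome against whole muscle in Het on slide 1 (0.48). The cause was not tested.

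Counts past the study threshold moved as follows. In whole muscle 1 fell to 0 under 75th percentile scaling, normexp, the authors' values, a filter on every array, slide as a block and brightness. In polysomes 1 became 0 under the filter on every array, the methods' t-test and slide 1, 3 on slide 2 and 4 with brightness. In monosomes 5 became 2 under 75th percentile scaling, 3 under normexp, 1 under the methods' t-test, 0 on slide 1 and 9 on slide 2. In loading 3 became 0 under normexp, the authors' values and slide 2, and 1 under the filter on every array and slide 1. Polysome against whole muscle in WT gave 1 under the authors' values, 2 under normexp and slide 1, and 3 under the filter on every array, slide 2, the methods' t-test and brightness, in place of 5. In Het it gave 0 under normexp, the authors' values and the filter on every array, 2 under no filter and the mean of all passing probes, and 5 with brightness, in place of 1. Polysome against monosome gave 0 under normexp, the authors' values, slide 1 and brightness, 1 under the filter on every array, slide as a block and the methods' t-test, and 12 on slide 2, in place of 2.

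Leaving out 1 mouse gave counts of 0 to 5 in whole muscle, 1 to 6 in polysomes, 1 to 10 in monosomes, 2 to 5 in loading, 5 to 7 and 1 for polysome against whole muscle in WT and Het, and 0 to 2 for polysome against monosome. The medians ran from -0.65 to -0.18, -0.57 to -0.07, -0.63 to -0.073, -0.14 to 0.15, 0.13 to 0.44, 0.18 to 0.29 and 0.19 to 0.50 in the same order. With the replicate number as a block, 1 member passed in whole muscle and 1 in polysomes. Without the replicate block, 3 passed in loading, 4 and 1 for polysome against whole muscle in WT and Het and 1 for polysome against monosome. No paired analysis was possible in monosomes because the genotypes shared only mouse number 1. No member's difference between genotypes passed an adjusted p of 0.05 in limma in the comparisons reported. There were at most 3 mice per genotype, some arrays were dim and some members lay near background. The part of each in this was not tested.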
